A study of Mus musculus with 16 samples.

Results

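The genes described here are the Wnt ligands, their Frizzled (Fzd) receptors, the secreted antagonists of the Dickkopf (Dkk) and Frizzled-related (Sfrp) families, and the R-spondins (Rspo). They were chosen by gene symbol alone: Wnt, Fzd, Dkk, Sfrp or Rspo followed by a number. Of the 24421 genes counted in each library, 41 matched, made up of 19 Wnt, 10 Fzd, 4 Dkk, 4 Sfrp and 4 Rspo genes.

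Wnt proteins are secreted, lipid-modified ligands that bind Frizzled receptors at the cell surface. Together with the co-receptors Lrp5 and Lrp6 they stabilise beta-catenin, and through other partners they act on cell shape and planar polarity. Dkk proteins block the Lrp co-receptors, Sfrp proteins bind Wnts through a domain that resembles Frizzled, and R-spondins keep Frizzleds at the surface by holding off the ligases Rnf43 and Znrf3. In the early mouse head, Wnt ligands of the midbrain, the dorsal neural tube and the surface ectoderm pattern the neural plate, and the forebrain forms where secreted antagonists keep the signal low.

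The tissue sequenced was the head of embryonic day 8.5 mice, in a series on folic acid supplementation and cilia. The groups were homozygous Ift88-null embryos and wild type embryos on a moderate diet with 2 ppm folic acid, and homozygous Ift88-null embryos and wild type embryos on an enriched diet with 10 ppm. Each of the 4 groups held 4 libraries, and every family, controls included, had been kept on its diet for 3 generations. Ift88 belongs to the intraflagellar transport machinery, and without it cilia fail to assemble normally. The dissected piece reached from just above the otic vesicle to the first branchial arch, and the labels give embryos of both sexes. The sources used here give neither the null allele nor the strain or litters. The p-values therefore reflect only how far these libraries spread, which may be technical in part. The comparisons ask what the loss of Ift88 changes on each diet, what the diet changes in each genotype, and whether the diet alters the effect of the genotype.

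Between 19249433 and 44267434 counts per library fell in genes. Ift88 checked the labels: it had 2.01 to 6.44 CPM, counts scaled to library size, in moderate diet mutants against 9.30 to 20.9 CPM in moderate diet wild type. With the enriched diet it had 2.86 to 8.61 CPM in mutants against 17.9 to 20.8 CPM in wild type. The lowest wild type value, 9.30 CPM, belonged to moderate diet wild type replicate 2, close to the highest mutant (8.61 CPM). Xist and Y-linked counts contradicted the labelled sex in 3 libraries, moderate diet mutant replicates 1 and 2 and moderate diet wild type replicate 2. Whether other labels of these libraries hold was not tested beyond Ift88, and moderate diet results are given below also without them. Moderate diet mutant replicate 3 stood apart from its group in several genes below, with a summed level of 10 cardiac markers of 22.0 CPM against 4.88 to 6.16 CPM in the other moderate diet mutants. Enriched diet mutant replicate 3 had a summed level of 8 maternal decidua markers of 266 CPM, against 5.08 to 12.1 CPM in the other libraries. For the tissue label, 15 cranial neural tube markers summed to 704 to 967 CPM, whereas 12 primitive streak and tail bud markers summed to 18.5 to 25.8 CPM.

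Wild type heads carried most of these genes at low to moderate levels. Levels between genes were compared per length, as RPKM, CPM divided by exon length in kilobases. In wild type libraries, 30 of the 41 genes averaged at least 1 RPKM, 12 averaged at least 10 RPKM, and 11 lay under 1 RPKM. Sfrp2 stood highest with 128 ± 12.4 RPKM in mutants and 92.5 ± 8.36 RPKM in wild type (SD, n = 8 each). Sfrp1 followed with 51.5 ± 9.84 RPKM in mutants and 71.2 ± 3.63 RPKM in wild type, and Fzd7 with 59.7 ± 7.13 RPKM in mutants and 48.7 ± 3.90 RPKM in wild type. In mutants, Fzd7 thus ranked above Sfrp1. The highest ligand was Wnt5b, at 13.9 ± 2.96 RPKM in mutants and 14.9 ± 1.26 RPKM in wild type, and the highest R-spondin was Rspo1, at 9.91 ± 2.24 RPKM in mutants and 11.7 ± 1.77 RPKM in wild type. Dkk1 had 4.36 ± 1.40 RPKM in mutants and 6.16 ± 1.05 RPKM in wild type, and Dkk3 had 4.92 ± 0.606 RPKM in mutants and 4.85 ± 0.490 RPKM in wild type, so Dkk1 was the higher of these only in wild type. Wnt7b ranked 16 of the 41 genes in mutants and 9 in wild type, and Wnt8b ranked 18 in mutants and 11 in wild type. Dkk4, Sfrp4 and Wnt8a were too rare to test: over all 16 libraries they had 8, 101 and 9 counts.

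**Figure D1:**
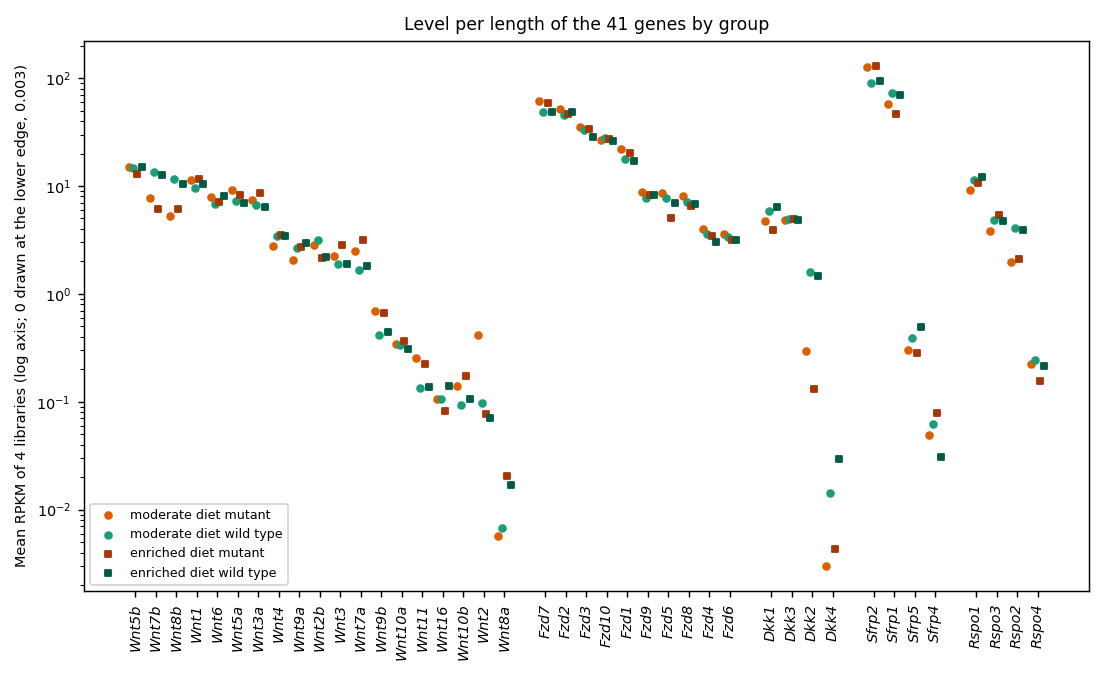
Mean level per length of each of the 41 genes in the 4 groups (RPKM, log axis, 4 libraries a point), ordered within each family by the wild type mean. Sfrp2, at 128 RPKM in mutants and 92.5 RPKM in wild type, lies highest, and mutant points fall below wild type points for Wnt7b, Wnt8b, Dkk2 and Rspo2.

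The 38 genes left after the filter on low counts were tested with edgeR's quasi-likelihood test, and p-values were adjusted by Benjamini-Hochberg over all 14514 genes tested. A gene counts as risen or fallen here where its adjusted p is under 0.05. On the moderate diet 7 of the 38 genes passed in mutants against wild type (18.4%), where 7.62% of all genes tested passed. There, 3 were up (4.79% of all genes) and 4 down (2.83%). On the enriched diet 11 passed (28.9%), 5 up (14.4% of all genes) and 6 down (16.8%), where 31.2% of all genes passed. The share among these genes was thus above the background on the moderate diet and close to it on the enriched diet. Averaged over both diets, with 8 mutants against 8 wild type libraries, 15 passed (39.5%), 9 up (17.4% of all genes) and 6 down (18.5%), where 35.8% of all genes passed. The median log2 fold change over the 38 genes in that average was 0.03, against -0.01 over all genes. By family, the calls of the average were 5 up and 2 down among 18 Wnt genes, 3 up among 10 Fzd genes, 2 down among 3 Dkk genes, 1 up and 1 down among 3 Sfrp genes, and 1 down among 4 Rspo genes. Single libraries moved the moderate diet counts: 10 genes passed without moderate diet mutant replicate 3, where 14.6% of all genes passed, and 6 was the lowest number in the fits without 1 library. In the fits that gave 6, the share of all genes was 3.71 to 7.19%. Without the 3 libraries whose labelled sex was contradicted, the moderate diet gave 3 genes, Rspo2, Wnt7b and Wnt8b, where 0.726% of all genes passed, and left 2 mutants and 3 wild type libraries. In that fit Dkk2 had a log2 fold change of -1.66 (adjusted p = 0.261), Sfrp2 of 0.47 (adjusted p = 0.176), Wnt5a of 0.25 (adjusted p = 0.347) and Fzd7 of 0.17 (adjusted p = 0.701), so these 4 genes lost their moderate diet calls. On the enriched diet, which has none of those libraries, and in the average, 10 genes each passed in the same fit, where 26.5% and 20.5% of all genes passed. In the average, Fzd1, Fzd3, Fzd7, Wnt3a and Wnt11 lost their calls there (adjusted p of 0.0584 to 0.182). Fzd3 (adjusted p = 0.0769) and Wnt3a (adjusted p = 0.0634) lost their enriched diet calls in that fit, and Fzd1 passed on the enriched diet (adjusted p = 0.0357).

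For 6 of the 38 genes (15.8%), no mutant library of either diet overlapped with any wild type library, a separation that 4.44% of all genes showed. The 8 mutants lay below the 8 wild type libraries in Dkk2, Rspo2, Sfrp1, Wnt7b and Wnt8b (13.2%, against 1.93% of all genes), and above them in Sfrp2 (2.63%, against 2.51%). The genotype comparisons of the diets share no library, but they come from 1 fit with a common estimate of the spread and of the sex effect. Dkk2, Rspo2, Wnt7b and Wnt8b fell and Sfrp2 and Wnt5a rose on both diets. These are 6 of the 7 genes called on the moderate diet and of the 11 called on the enriched diet. How many of all genes were called on both diets was not counted, so these numbers have no background beside them. The sign was the same on both diets in 27 of the 38 genes, and over all genes in 72.6%. Across the 38 genes the log2 fold changes of the diets had a Pearson r of 0.71, against 0.73 across all genes. That r describes these libraries, and genes are not independent replicates.

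**Figure D2:**
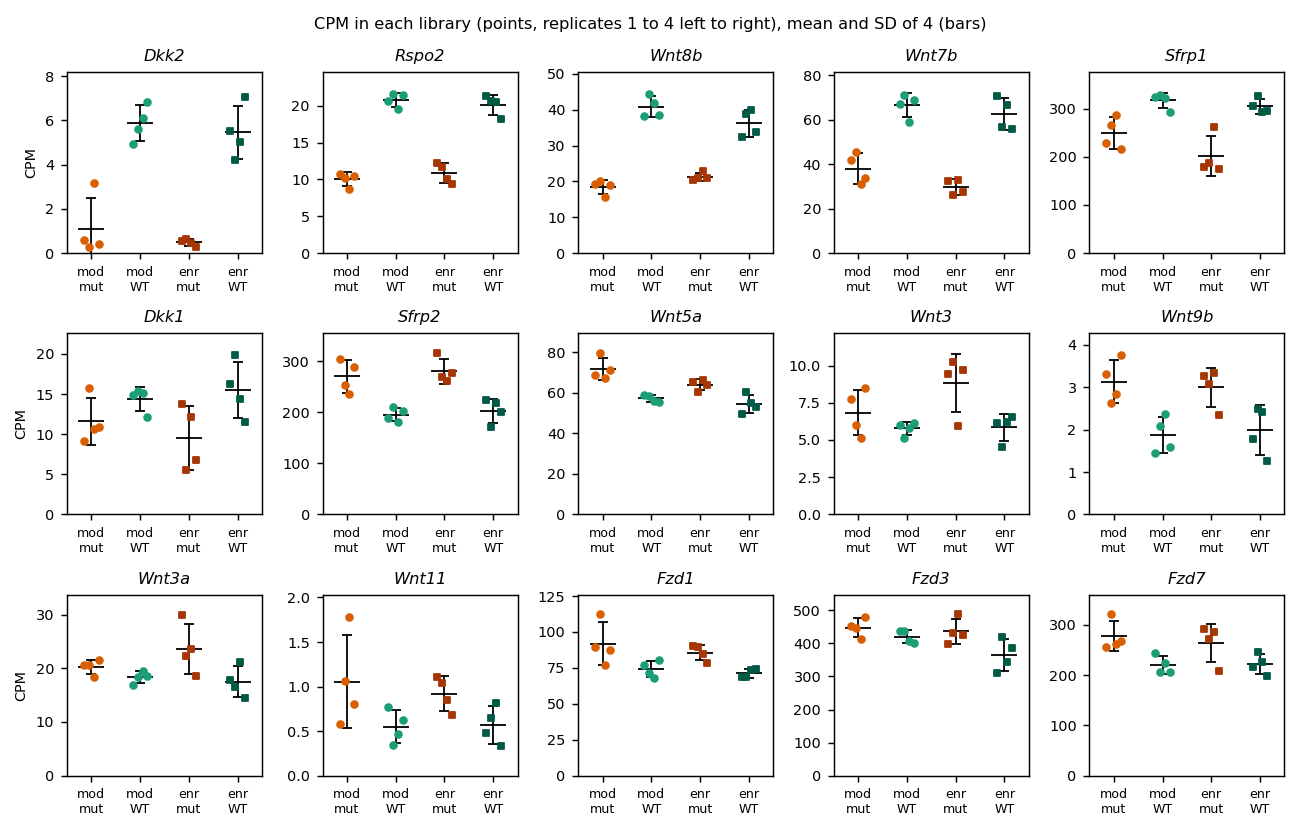
Level in each library (CPM; points are replicates 1 to 4 from left to right, bars the mean ± SD of 4) for the 15 genes past the threshold in at least 1 genotype comparison, with mutants (mut) left of wild type (WT) on the moderate (mod) and the enriched (enr) diet. In Dkk2, Rspo2, Wnt8b, Wnt7b and Sfrp1 all 8 mutants lie below all 8 wild type libraries, and in Sfrp2 above them.

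Promoter sequences of genes that rose or fell are shown so that short motifs can be set beside the changes. They are the 250 bases before the RefSeq start of the gene (build GRCm38.p6), read 5′ to 3′ on the gene's strand, and capitals mark matches to the motifs named below. RefSeq windows were matched for 27 of the 41 genes. The first 3 hold a match to CTTTGA, the core of TCF/LEF sites, through which beta-catenin acts. The others are the promoters of Dkk2 and Wnt8b, which fell on both diets, and of Sfrp2, which rose on both. Their positions are chr19:30549497-30549746 (minus strand) for Dkk1, chr5:4758217-4758466 (minus strand) for Fzd1, chr7:98834862-98835111 (plus strand) for the first of 2 starts of Wnt11, chr3:132085042-132085291 (plus strand) for Dkk2, chr19:44493222-44493471 (plus strand) for Wnt8b and chr3:83766071-83766320 (plus strand) for Sfrp2.
Dkk1: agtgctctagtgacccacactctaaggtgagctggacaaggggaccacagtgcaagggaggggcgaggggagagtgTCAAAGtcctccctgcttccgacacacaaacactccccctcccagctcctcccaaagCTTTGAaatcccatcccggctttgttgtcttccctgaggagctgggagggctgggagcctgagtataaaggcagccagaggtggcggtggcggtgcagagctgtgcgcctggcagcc
Fzd1: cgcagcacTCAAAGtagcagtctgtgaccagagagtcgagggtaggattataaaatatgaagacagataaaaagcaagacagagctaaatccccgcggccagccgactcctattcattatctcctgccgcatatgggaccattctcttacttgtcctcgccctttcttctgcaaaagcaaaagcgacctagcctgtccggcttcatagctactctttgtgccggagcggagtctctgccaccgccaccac
Wnt11: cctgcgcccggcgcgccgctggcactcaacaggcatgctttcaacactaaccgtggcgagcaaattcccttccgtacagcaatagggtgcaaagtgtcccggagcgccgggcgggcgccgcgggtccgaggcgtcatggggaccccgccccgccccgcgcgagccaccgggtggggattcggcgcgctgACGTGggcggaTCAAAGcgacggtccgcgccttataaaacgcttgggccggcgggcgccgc
Dkk2: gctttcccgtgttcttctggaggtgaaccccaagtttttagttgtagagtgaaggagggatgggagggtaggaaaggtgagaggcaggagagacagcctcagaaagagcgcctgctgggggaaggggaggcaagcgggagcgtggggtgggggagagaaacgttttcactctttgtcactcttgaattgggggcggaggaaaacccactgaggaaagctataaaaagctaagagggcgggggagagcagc
Wnt8b: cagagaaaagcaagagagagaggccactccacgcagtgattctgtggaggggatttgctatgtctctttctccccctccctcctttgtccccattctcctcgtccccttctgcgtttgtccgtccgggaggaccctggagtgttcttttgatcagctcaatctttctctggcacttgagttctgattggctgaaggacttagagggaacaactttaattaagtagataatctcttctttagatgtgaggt
Sfrp2: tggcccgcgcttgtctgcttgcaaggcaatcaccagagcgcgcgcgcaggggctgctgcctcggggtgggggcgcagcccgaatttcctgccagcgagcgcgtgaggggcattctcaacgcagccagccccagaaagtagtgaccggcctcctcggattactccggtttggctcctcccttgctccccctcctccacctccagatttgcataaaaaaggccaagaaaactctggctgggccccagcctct

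The motifs were searched on both strands. CTTTGA was found in windows of 4 of the 27 genes, Dkk1 with 2 matches, Fzd1, Wnt11 and Wnt5b, and in 13.8% of all 32851 promoter windows. GACCACCCA, the site of the Gli factors of Hedgehog signalling, was found in none of the 27 genes and in 0.225% of all windows. ACGTG, the core of the hypoxia response element, was found in 6 of the 27 genes and in 16.6% of all windows. Of the genes with CTTTGA, Dkk1 fell, Fzd1 and Wnt11 rose in the average over diets, and Wnt5b did not pass.

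Among the ligands, Wnt8b and Wnt7b fell on both diets. Wnt8b, a ligand known from the dorsal forebrain and its boundary regions, lies on chromosome 19 from 44493472 to 44514273 (plus strand; positions are of mm10). It had 19.3, 20.003, 15.7 and 19.04 CPM in moderate diet mutants, against 38.4, 44.5, 41.7 and 38.6 CPM in moderate diet wild type. On the enriched diet the values were 20.3, 20.9, 22.8 and 20.9 CPM in mutants, against 32.4, 38.7, 40.0 and 33.7 CPM in wild type. Every mutant was far below every wild type library. The fitted level in mutants was 45.3% of wild type on the moderate diet (log2 fold change -1.14 ± 0.10 SE, adjusted p = 3.65e-06), and with the enriched diet it was 58.4% (-0.78 ± 0.10, adjusted p = 0.000117).

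Wnt7b, a ligand of the canonical pathway, lies on chromosome 15 from 85535437 to 85582473 (minus strand). Its levels were 42.0, 45.4, 30.9 and 33.8 CPM in moderate diet mutants, against 67.0, 71.2, 59.0 and 68.8 CPM in moderate diet wild type. Enriched diet mutants had 32.6, 26.1, 32.8 and 27.6 CPM, against 70.6, 56.8, 66.6 and 55.8 CPM in enriched diet wild type. The groups did not overlap on either diet, and the mutants of the moderate diet were spread more widely than those of the enriched diet. The fitted level in mutants was 57.2% of wild type on the moderate diet (log2 fold change -0.81 ± 0.12 SE, adjusted p = 0.000834), and with the enriched diet it was 47.2% (-1.08 ± 0.13, adjusted p = 7.75e-05). In tissue libraries such as these, fewer cells of a type and less RNA per cell cannot be told apart. The forebrain factor Lhx2 fell as well, with a log2 fold change of -1.06 ± 0.15 averaged over the diets (adjusted p = 0.000104). It is 1 of 14 cranial neural tube markers tested, of which 2 fell, 1 rose and 11 did not pass. The part of changed regional makeup in the fall of these ligands was not tested.

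Wnt5a, a ligand of the planar polarity branch, rose on both diets by a small amount. It lies on chromosome 14 from 28504750 to 28527448 (plus strand). Moderate diet mutants had 69.0, 79.8, 67.5 and 71.3 CPM, against 59.1, 58.7, 56.0 and 55.4 CPM in moderate diet wild type. On the enriched diet, mutants had 65.6, 60.3, 66.3 and 64.0 CPM, against 49.4, 60.4, 55.1 and 53.1 CPM in wild type. The groups were apart on the moderate diet, whereas on the enriched diet 1 wild type library overlapped with the lowest mutant. The log2 fold change was 0.33 ± 0.07 SE on the moderate diet (adjusted p = 0.00653), while the enriched diet gave 0.21 ± 0.07 (adjusted p = 0.0271). Without enriched diet mutant replicate 4 the enriched diet call was lost (0.19, adjusted p = 0.0721), as it was with the libraries of the 2 enriched diet groups alone (0.21, adjusted p = 0.0882).

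Wnt3 and Wnt3a, ligands of the canonical pathway, rose on the enriched diet. Wnt3 lies on chromosome 11 from 103774150 to 103817957 (plus strand). It had 9.40, 10.2, 5.94 and 9.69 CPM in enriched diet mutants, against 6.13, 4.50, 6.22 and 6.56 CPM in enriched diet wild type. Replicate 3 of the mutants lay among the wild type libraries and the other 3 mutants above all of them (log2 fold change 0.67 ± 0.17 SE, adjusted p = 0.00733). On the moderate diet Wnt3 had 7.72, 5.98, 5.16 and 8.48 CPM in mutants, against 6.00, 5.13, 5.81 and 6.14 CPM in wild type, and the groups overlapped (0.23 ± 0.16, adjusted p = 0.429). Wnt3a lies on chromosome 11 from 59248033 to 59290752 (minus strand). Its values were 29.9, 22.3, 23.5 and 18.6 CPM in enriched diet mutants, against 17.9, 16.5, 21.2 and 14.4 CPM in enriched diet wild type (0.41 ± 0.14, adjusted p = 0.0331). Mutant replicate 4 lay among the wild type libraries. Moderate diet mutants had 20.6, 20.7, 18.4 and 21.5 CPM, against 16.9, 18.3, 19.5 and 18.6 CPM in moderate diet wild type (0.15 ± 0.13, adjusted p = 0.559). The enriched diet call of Wnt3a was lost when any of enriched diet mutant replicates 1 and 2 or wild type replicates 2 and 4 was left out (adjusted p of 0.0511 to 0.0893), or when the enriched diet groups were fitted alone (adjusted p = 0.118). Its averaged call (0.28 ± 0.10, adjusted p = 0.0336) was lost without moderate diet mutant replicates 1 or 4, moderate diet wild type replicate 1 or enriched diet wild type replicates 2 or 4 (adjusted p of 0.0557 to 0.0672). Without the 3 libraries of contradicted sex, both calls of Wnt3a were lost (adjusted p = 0.0634 on the enriched diet and 0.182 averaged).

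Wnt9b and Wnt11 passed only in the average over diets. Wnt9b, a ligand known from the facial ectoderm, lies on chromosome 11 from 103727364 to 103749821 (minus strand), 24.3 kb from Wnt3 and transcribed away from it. The genes do not overlap, so reads of Wnt9b and Wnt3 are separate. Wnt9b had 3.31, 2.62, 2.84 and 3.76 CPM in moderate diet mutants, against 1.44, 2.08, 2.36 and 1.59 CPM in moderate diet wild type. Enriched diet mutants had 3.26, 3.07, 3.34 and 2.34 CPM, against 1.77, 2.49, 2.43 and 1.25 CPM in enriched diet wild type. The groups did not overlap on the moderate diet, and on the enriched diet 1 mutant lay within the wild type range (log2 fold change 0.66 ± 0.16 SE averaged, adjusted p = 0.00512). On each diet alone Wnt9b missed the threshold, with adjusted p-values of 0.0556 on the moderate and 0.0664 on the enriched diet. It passed on the moderate diet without moderate diet mutant replicate 3, moderate diet wild type replicate 3, enriched diet mutant replicate 4 or enriched diet wild type replicate 4 (adjusted p of 0.0348 to 0.0435). It passed on the enriched diet without enriched diet mutant replicate 4 or enriched diet wild type replicates 2 or 3 (adjusted p of 0.0411 to 0.0485). DESeq2 called Wnt9b on each diet (adjusted p = 0.0253 on the moderate and 0.0482 on the enriched diet).

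Wnt11, another ligand of the planar polarity branch, lies on chromosome 7 from 98835112 to 98855195 (plus strand) and is rare here. It had 0.581, 1.07, 1.78 and 0.800 CPM in moderate diet mutants, against 0.768, 0.339, 0.473 and 0.622 CPM in moderate diet wild type. Its levels on the enriched diet were 1.11, 1.04, 0.848 and 0.678 CPM in mutants, against 0.479, 0.643, 0.818 and 0.336 CPM in wild type. Most mutants were above most wild type libraries, with overlap on both diets (0.74 ± 0.25 averaged, adjusted p = 0.0284). Leaving out moderate diet mutant replicate 3, moderate diet wild type replicate 2, enriched diet mutant replicate 2 or enriched diet wild type replicate 2 ended its averaged call (adjusted p of 0.0509 to 0.0663), and moderate diet mutant replicate 3 is the library with the highest value.

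No call was made in the other 11 tested Wnt genes in any genotype comparison, with averaged log2 fold changes from -0.36 in Wnt16 to 0.79 in Wnt2. Wnt5b, the highest ligand, had 37.2, 51.6, 32.9 and 37.7 CPM in moderate diet mutants, against 39.0, 39.1, 38.4 and 38.2 CPM in moderate diet wild type. Wnt5b had 34.5, 28.9, 44.8 and 28.6 CPM in enriched diet mutants, against 47.4, 37.9, 38.7 and 36.6 CPM in enriched diet wild type. Wnt5b mutants scattered on both sides of the wild type libraries (averaged -0.12 ± 0.10, adjusted p = 0.363). Wnt1, the ligand of the midbrain and the isthmus, averaged 27.4 ± 3.37 CPM in mutants and 23.8 ± 3.03 CPM in wild type (SD, n = 8 each; 0.20 ± 0.09, adjusted p = 0.108). Wnt2 rested on 1 library: moderate diet mutant replicate 3 had 3.38 CPM, the other moderate diet mutants 0.0820 to 0.137 CPM, and the moderate diet wild type libraries 0.144 to 0.249 CPM. Taking the 19 ligands together, their share of the summed RPKM of the 41 genes was 14.9 to 16.2% in mutants and 16.9 to 17.9% in wild type, without overlap. Their sum itself overlapped, at 67.6 to 85.9 RPKM in mutants and 78.7 to 88.3 RPKM in wild type, and the share also depends on the Fzd sum, which was 190.0 to 262 RPKM in mutants and 189 to 208 RPKM in wild type. The summed level of Wnt8b and Wnt7b was 10.8 to 15.01 RPKM in mutants and 21.1 to 27.3 RPKM in wild type, apart because each gene is. Both are part of the ligand sum, and Sfrp2, which rose, is part of the total. The separation of the ligand share is thus not independent of these genes. The Dkk share did not overlap either, at 1.52 to 2.26% in mutants and 2.48 to 2.93% in wild type.

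The receptors changed little. All 10 Fzd genes were tested, the averaged log2 fold changes ran from -0.21 to 0.28, and 3 genes rose, Fzd7, Fzd1 and Fzd3. Fzd7 lies on chromosome 1 from 59482424 to 59486955 (plus strand). It had 257, 321, 262 and 267 CPM in moderate diet mutants, against 244, 207, 223 and 206 CPM in moderate diet wild type. Enriched diet mutants had 291, 271, 285 and 209 CPM, against 216, 245, 227 and 197 CPM in enriched diet wild type. Mutants of the moderate diet were all above wild type, and mutant replicate 4 of the enriched diet lay within the wild type range. The log2 fold change was 0.33 ± 0.10 SE on the moderate diet (adjusted p = 0.0465), 0.21 ± 0.10 on the enriched diet (adjusted p = 0.105) and 0.27 ± 0.07 averaged (adjusted p = 0.00621). Its moderate diet call was lost on leaving out any of moderate diet mutant replicates 1, 2 and 4, moderate diet wild type replicates 2 and 4, enriched diet mutant replicate 1 or enriched diet wild type replicates 2 and 3 (adjusted p of 0.0511 to 0.127). Fzd7 passed on the enriched diet without enriched diet mutant replicate 4 or moderate diet mutant replicate 2 (adjusted p of 0.0215 to 0.0475). The moderate diet call was also lost with no sex covariate, with the sex read from the counts and with the libraries of these groups alone (adjusted p of 0.0653 to 0.0834). Without the 3 libraries of contradicted sex, Fzd7 had a log2 fold change of 0.17 on the moderate diet (adjusted p = 0.701) and 0.19 averaged (adjusted p = 0.0938).

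Fzd1, on chromosome 5 from 4753839 to 4758035 (minus strand), passed only in the average by edgeR as fitted here. Moderate diet mutants had 89.7, 112, 76.7 and 87.7 CPM, against 76.9, 71.4, 68.1 and 80.5 CPM in moderate diet wild type. On the enriched diet, mutants had 89.9, 89.8, 84.6 and 78.4 CPM, against 68.5, 68.7, 73.7 and 74.5 CPM in wild type. The enriched diet groups were apart, and on the moderate diet mutant replicate 3 lay among the wild type libraries (0.28 ± 0.07 averaged, adjusted p = 0.00542). Without the 3 libraries of contradicted sex, the averaged call was lost (0.18, adjusted p = 0.0738). DESeq2 called Fzd1 on each diet (adjusted p = 0.0348 on the moderate and 0.0341 on the enriched diet), and 6 other settings called it on the enriched diet (adjusted p of 0.0357 to 0.0489). Without moderate diet mutant replicate 3, Fzd1 passed on the moderate diet (0.39, adjusted p = 0.00708). It passed on the enriched diet without enriched diet mutant replicate 3, moderate diet mutant replicates 2 or 3, or moderate diet wild type replicates 3 or 4 (adjusted p of 0.0127 to 0.0454). Fzd3, on chromosome 14 from 65192449 to 65262463 (minus strand), is a receptor known for its part in planar polarity and axon guidance. It had 397, 431, 489 and 427 CPM in enriched diet mutants, against 311, 419, 345 and 386 CPM in enriched diet wild type (0.24 ± 0.09, adjusted p = 0.0476). Moderate diet mutants had 451, 445, 414 and 481 CPM, against 437, 438, 406 and 402 CPM in moderate diet wild type. The groups overlapped on both diets, and the enriched diet call was lost without enriched diet mutant replicates 2, 3 or 4 or wild type replicates 1 or 3 (adjusted p of 0.0672 to 0.0896), and with the enriched diet groups fitted alone (adjusted p = 0.121). Its averaged call (0.16 ± 0.06, adjusted p = 0.0445) was lost in the same 5 fits and without moderate diet mutant replicates 1 or 4 or moderate diet wild type replicate 4 (adjusted p of 0.0505 to 0.0794). With the sex read from the counts, Fzd3 missed on the enriched diet (adjusted p = 0.0538) and in the average (adjusted p = 0.0705). Without the 3 libraries of contradicted sex, Fzd3 missed in these comparisons too (adjusted p = 0.0769 on the enriched diet and 0.18 averaged).

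Of the R-spondins, Rspo2 fell and the other 3 did not pass. Rspo2, on chromosome 15 from 43020794 to 43170826 (minus strand), had 10.8, 10.2, 8.74 and 10.4 CPM in moderate diet mutants, against 20.6, 21.5, 19.6 and 21.5 CPM in moderate diet wild type. Enriched diet mutants had 12.2, 11.7, 10.1 and 9.32 CPM, against 21.3, 20.7, 20.5 and 18.2 CPM in enriched diet wild type. Within each group the libraries lay close together, and the highest mutant was well below the lowest wild type library. The fitted level in mutants was 48.3% of wild type on the moderate diet (log2 fold change -1.05 ± 0.10 SE, adjusted p = 1.61e-05), and with the enriched diet it was 53.5% (-0.90 ± 0.10, adjusted p = 7.37e-05). Rspo1, the highest of the family, had 21.2, 15.5, 13.2 and 21.2 CPM in moderate diet mutants, against 18.3, 21.9, 22.1 and 25.3 CPM in moderate diet wild type. For the enriched diet, Rspo1 had 23.4, 23.3, 13.6 and 22.2 CPM in mutants, against 23.1, 18.1, 23.9 and 28.3 CPM in wild type. Those groups overlapped (-0.21 ± 0.12 averaged, adjusted p = 0.185). Rspo3 and Rspo4 had averaged log2 fold changes of -0.07 ± 0.17 and -0.37 ± 0.26.

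Among the Dickkopf antagonists, Dkk2 had the steepest fall of the 38 genes. It lies on chromosome 3 from 132085292 to 132180304 (plus strand). Moderate diet mutants had 0.581, 0.287, 3.15 and 0.400 CPM, against 4.95, 5.62, 6.10 and 6.84 CPM in moderate diet wild type. Enriched diet mutants had 0.544, 0.649, 0.477 and 0.271 CPM, against 5.51, 4.22, 5.03 and 7.08 CPM in enriched diet wild type. All mutants were below all wild type libraries, and 7 of the 8 were far below, the exception being moderate diet mutant replicate 3. The fitted level was 19.8% of wild type on the moderate diet (log2 fold change -2.34 ± 0.49 SE, adjusted p = 0.00795), and with the enriched diet it was 8.71% (-3.52 ± 0.56, adjusted p = 0.000527). Without moderate diet mutant replicate 3, the moderate diet log2 fold change was -3.80 (adjusted p = 3.19e-07). That library also held the high cardiac marker sum given above, and the part of its makeup in its Dkk2 level was not tested.

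Dkk1, the antagonist that mouse head formation requires, lies on chromosome 19 from 30545863 to 30549665 (minus strand) and passed on the enriched diet. It had 13.7, 5.58, 12.2 and 6.74 CPM in enriched diet mutants, against 16.2, 19.8, 14.4 and 11.5 CPM in enriched diet wild type. Mutant replicates 2 and 4 were low, and replicates 1 and 3 reached into the wild type range (-0.86 ± 0.20, adjusted p = 0.00509). On the moderate diet it had 9.12, 15.8, 10.7 and 10.8 CPM in mutants, against 14.9, 15.4, 15.1 and 12.1 CPM in wild type (-0.34 ± 0.19, adjusted p = 0.312). There, replicate 2 lay above the wild type libraries and the other 3 mutants below them. Dkk3, a divergent member of the family, averaged 16.5 ± 2.04 CPM in mutants and 16.3 ± 1.65 CPM in wild type (SD, n = 8 each; 0.01 ± 0.09, adjusted p = 0.932).

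The Sfrp genes moved apart: Sfrp2 rose and Sfrp1 fell. Sfrp2, on chromosome 3 from 83766321 to 83774316 (plus strand), had 304, 253, 235 and 289 CPM in moderate diet mutants, against 189, 210, 181 and 202 CPM in moderate diet wild type. Enriched diet mutants had 315, 269, 261 and 277 CPM, against 223, 171, 218 and 200.1 CPM in enriched diet wild type. Every mutant exceeded every wild type library (log2 fold change 0.46 ± 0.10 SE with adjusted p = 0.00788 on the moderate diet, 0.49 ± 0.10 with adjusted p = 0.00223 on the enriched diet). Sfrp1, on chromosome 8 from 23411502 to 23449632 (plus strand), had 229.7, 266, 287 and 215 CPM in moderate diet mutants, against 325, 328, 323 and 294 CPM in moderate diet wild type. For the enriched diet, Sfrp1 had 179.6, 188, 263 and 175 CPM in mutants, against 306, 326, 294 and 294 CPM in wild type. Every mutant was below every wild type library, and replicate 3 was the highest mutant on each diet. The fall passed on the enriched diet (-0.64 ± 0.11, adjusted p = 0.000826) and averaged over diets (-0.50 ± 0.08, adjusted p = 0.00019), and missed on the moderate diet (-0.35 ± 0.11, adjusted p = 0.0565). It passed on the moderate diet without moderate diet mutant replicate 3, or without enriched diet mutant replicates 1, 3 or 4 (adjusted p of 0.0158 to 0.0491). DESeq2 called it there too (adjusted p = 0.0211).

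The ratio of Sfrp2 to Sfrp1 in RPKM was 1.66 to 3.57 in mutants and 1.06 to 1.503 in wild type. Since Sfrp2 and Sfrp1 each separated the genotypes in opposite directions, their ratio had to separate them and is no further result. The sum of these genes overlapped between genotypes, at 168 to 194 RPKM in mutants and 154 to 174 RPKM in wild type. Sfrp5 was rare, at 0.160 to 1.35 CPM in mutants and 0.274 to 1.81 CPM in wild type, and its averaged log2 fold change was -0.68 ± 0.48 (adjusted p = 0.286).

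**Figure D3:**
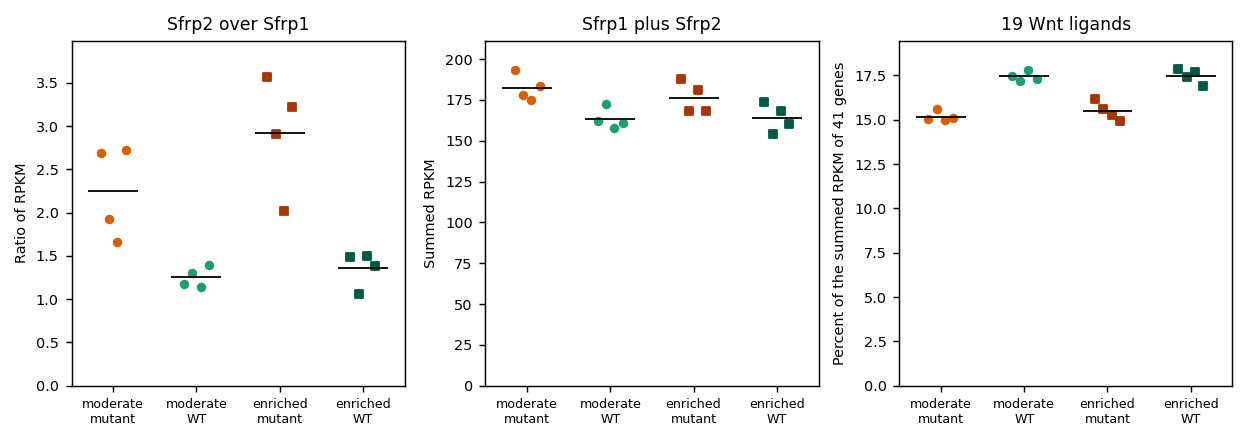
Ratio of Sfrp2 to Sfrp1 (left, ratio of RPKM), their sum (middle, RPKM) and the share of the 19 Wnt ligands in the summed RPKM of the 41 genes (right, percent) in each library, with a bar at the mean of 4 and mutants left of wild type on each diet. The ratio is 1.66 to 3.57 in mutants and 1.06 to 1.503 in wild type, apart because each of its genes is. The sum of Sfrp1 and Sfrp2 overlaps between genotypes. The ligand share is 14.9 to 16.2% in mutants and 16.9 to 17.9% in wild type, and is not independent of Wnt7b and Wnt8b, which each separate the genotypes. The ligand sum, not drawn, overlaps (67.6 to 85.9 RPKM in mutants, 78.7 to 88.3 RPKM in wild type).

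**Figure D4:**
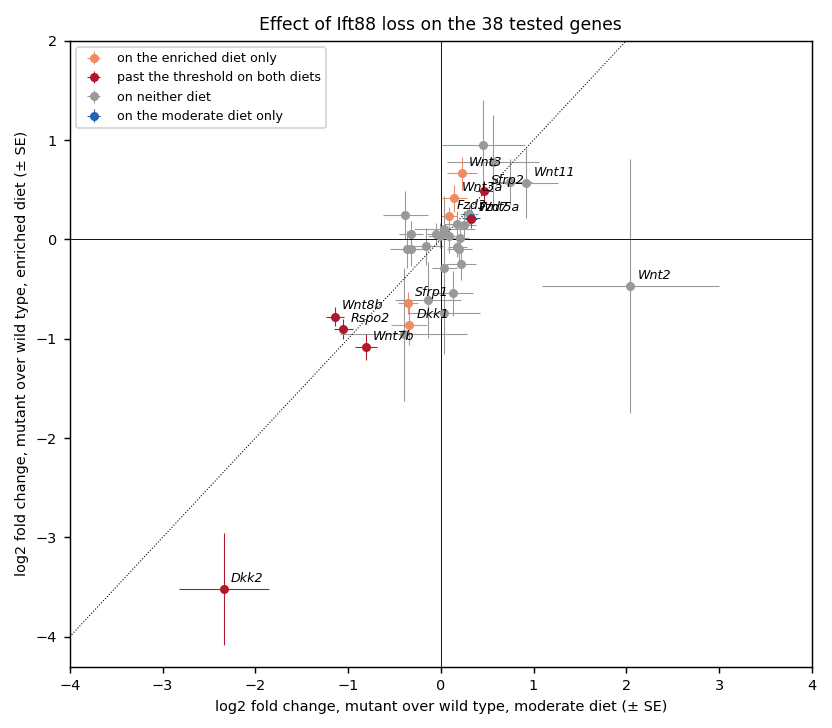
Log2 fold change of mutants over wild type (± SE) on the moderate diet (horizontal) and the enriched diet (vertical) for the 38 tested genes, with the line of equal effect dotted and colours for the diets on which a gene passed the threshold. Dkk2, Wnt8b, Rspo2 and Wnt7b lie at the lower left and Sfrp2 and Wnt5a at the upper right, and Wnt2, whose moderate diet value rests on 1 mutant library, lies at the far right.

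The diet itself moved none of these genes past the threshold. Enriched against moderate diet gave 0 of 38 genes in mutants, where 0.0% of all genes passed, and 0 of 38 in wild type, where 0.0% of all genes passed, by edgeR. DESeq2 and limma-voom also called 0 of these genes in either genotype. At an unadjusted p under 0.05, there were 6 of the 38 in mutants (15.8%, against 10.8% of all genes) and 1 in wild type (2.63%, against 2.44%). In mutants these were Fzd5, Fzd8, Sfrp1, Wnt2, Wnt4 and Wnt7b, with adjusted p-values of 0.442 to 0.455, and in wild type it was Wnt2b (adjusted p = 0.967). For the 15 genes that fell or rose with genotype, the wild type estimates of the diet effect ran from -0.16 ± 0.10 in Wnt8b to 0.33 ± 0.20 in Dkk1, with -0.03 ± 0.11 in Rspo2 and 0.02 ± 0.11 in Sfrp2. An interval of 2 SE around the diet effect of Rspo2 in wild type ran from -0.25 to 0.19, and that of Dkk2 from -1.05 to 0.94, so a diet effect on Dkk2 of that size was not detectable here.

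In mutants, enriched diet libraries lay entirely apart from moderate diet libraries in 2 genes (5.26%, against 3.2% of all genes), and neither passed the threshold. Wnt5a had 60.3 to 66.3 CPM in enriched diet mutants and 67.5 to 79.8 CPM in moderate diet mutants. Wnt8b had 20.3 to 22.8 CPM in enriched diet mutants and 15.7 to 20.003 CPM in moderate diet mutants. Fzd5, the receptor known from the forebrain and the eye field, had 26.3, 25.1, 60.8 and 28.7 CPM in enriched diet mutants, against 55.1, 75.7, 63.8 and 43.2 CPM in moderate diet mutants. Of its enriched diet mutants 3 were below all moderate diet mutants, and replicate 3 was not (log2 fold change -0.72 ± 0.23, unadjusted p = 0.00538, adjusted p = 0.442).

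Whether the diet changed the effect of the genotype was tested by the interaction, in which 0 of 38 genes passed, where 0.0% of all genes passed; DESeq2 and limma-voom also called 0 of the 38. At an unadjusted p under 0.05 there was 1 gene (2.63%, against 9.65% of all genes), Wnt8b, whose fall was smaller on the enriched diet by 0.37 ± 0.14 on the log2 scale (adjusted p = 0.501). Genes called on 1 diet alone, such as Dkk1, Wnt3 and Sfrp1, were therefore not shown to differ between diets. The interaction of Sfrp1 was -0.29 ± 0.15, and that of Dkk2 was -1.18 ± 0.74.

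Other genes of the pathway were described by lists. Among Wnt secretion factors, co-receptors and membrane regulators, 8 of 17 rose and 0 fell in the average over diets, with a median log2 fold change of 0.20 against -0.01 over all genes, where 17.4% of all genes rose. On the moderate diet 3 rose (4.79% of all genes), and on the enriched diet 9 (14.4%), with 0 down on either. Porcn, the enzyme that attaches the lipid to Wnts, had a log2 fold change of 0.78 ± 0.11 SE (adjusted p = 7.52e-05). The glypicans Gpc6 (0.61 ± 0.09, adjusted p = 0.000114) and Gpc3 (0.25 ± 0.05, adjusted p = 0.00146), which bind Wnts at the cell surface, and the R-spondin receptor Lgr4 (0.25 ± 0.05, adjusted p = 0.0027) rose too. Of the other extracellular inhibitors, 5 of 12 rose and 0 fell (median -0.03), led by Shisa3 (1.17 ± 0.28, adjusted p = 0.00467), Sost (0.63 ± 0.16, adjusted p = 0.00696), Frzb (0.27 ± 0.09, adjusted p = 0.0286) and Notum (0.34 ± 0.12, adjusted p = 0.0362). By diet the counts were 0 up and 1 down on the moderate diet (Draxin, -0.80 ± 0.20) and 1 up and 1 down on the enriched diet, where Shisa3 rose and Igfbp4 fell (-0.27 ± 0.09). The cytoplasmic and nuclear part of the pathway went mostly the other way, with 2 of 24 up and 11 down (median -0.10), where 18.5% of all genes fell. On the moderate diet 2 fell (2.83% of all genes), and on the enriched diet 5 (16.8%), with 0 up on either. Ctnnbip1, an inhibitor of beta-catenin, was among those (-0.33 ± 0.06, adjusted p = 0.000836), as were the co-repressor Tle1 (-0.20 ± 0.04, adjusted p = 0.000837), Apc2 (-0.50 ± 0.11, adjusted p = 0.00186) and the co-activator Pygo2 (-0.23 ± 0.05, adjusted p = 0.00433).

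Of 16 genes known to respond to beta-catenin, 3 rose and 2 fell in the average (median 0.00), where 17.4% of all genes rose and 18.5% fell. On the enriched diet 3 rose (14.4% of all genes) and 2 fell (16.8%), and on the moderate diet 0 passed in either direction (7.62%). Tnfrsf19 (0.49 ± 0.10, adjusted p = 0.00103), Rnf43 (0.64 ± 0.14, adjusted p = 0.00304) and Notum were higher, and Cdx1 (-1.30 ± 0.35, adjusted p = 0.00928) and Ccnd1 (-0.15 ± 0.06, adjusted p = 0.0437) were lower. The common readouts Axin2 (-0.02 ± 0.10) and Lef1 (-0.05 ± 0.06) did not pass. Of the planar polarity genes, 3 of 13 rose and 0 fell in the average, where 17.4% of all genes rose. These were Fuz (0.70 ± 0.09, adjusted p = 5.46e-05), Celsr1 (0.18 ± 0.06, adjusted p = 0.0343) and Vangl2 (0.19 ± 0.07, adjusted p = 0.0389). On the moderate diet 1 was up (4.79% of all genes) and on the enriched diet 3 (14.4%). In the diet comparisons and the interaction, no gene of any list passed, where 0.0% of all genes did.

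Markers of regions and cell types that express Wnt genes were counted in the average over diets, where 17.4% of all genes rose and 18.5% fell. The part of these markers in the results above was not tested. Floor plate markers fell in 9 of 10 genes and rose in 0, with a median log2 fold change of -2.65 and a summed level of 193 to 258 CPM in mutants and 329 to 367 CPM in wild type. Foxa2, Nkx2-9, Shh and Nkx2-2 led that fall, at -5.14 ± 0.14, -8.06 ± 0.22, -4.66 ± 0.14 and -3.53 ± 0.20. Midbrain-hindbrain boundary markers rose in 6 of 8 genes, Fgf8 (0.69 ± 0.10), Pax2 (0.64 ± 0.11), Pax8 (0.44 ± 0.11) and En2 (0.49 ± 0.12) first, and summed to 178 to 287 CPM in mutants and 169 to 193 CPM in wild type. Cranial neural tube markers passed in 1 of 14 genes upward (Sox2, 0.21 ± 0.05) and 2 downward (Lhx2, given above, and Sox3, -0.46 ± 0.10). Roof plate and dorsal markers passed in 3 of 11 genes upward (Zic2, 0.35 ± 0.07; Bmp6, 0.68 ± 0.21; Zic5, 0.27 ± 0.09) and 1 downward (Lmx1a, -0.68 ± 0.12). Surface ectoderm markers rose in 3 of 12 genes (Krt19, 0.99 ± 0.11; Epcam, 0.22 ± 0.06; Tfap2a, 0.25 ± 0.07). Head mesenchyme markers rose in 2 of 17 genes and fell in 5, led by Foxl1 (-3.72 ± 0.21), Foxf2 (-2.61 ± 0.16), Foxc2 (-1.02 ± 0.08) and Tbx1 (-0.97 ± 0.17). By diet, 0 rose and 4 fell on the moderate diet, and 0 rose and 7 fell on the enriched diet. Of 9 neural crest markers 0 passed, where 35.8% of all genes did.

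For tissues that the dissection could also hold, the counts are again of the average over diets (17.4% of all genes up, 18.5% down). The 7 cardiac markers tested gave 1 gene up (Gata4, 3.07 ± 0.37) and 2 down (Tbx5 at -2.14 ± 0.34 and Myh7 at -1.42 ± 0.37). The defining markers Nkx2-5, Tnnt2 and Myl2 were too rare to test. Endothelial markers passed in 3 of 11 genes upward (Flt1 at 0.81 ± 0.10, Pecam1 at 0.56 ± 0.09 and Kdr at 0.18 ± 0.05). Another 2 passed downward (Tie1 at -0.21 ± 0.05 and Emcn at -0.24 ± 0.06). By diet, 2 endothelial markers rose and 0 fell on the moderate diet, and 2 rose and 4 fell on the enriched diet. Erythroid markers fell in 4 of 9 genes (Epor, -1.0002 ± 0.20; Klf1, -1.502 ± 0.33; Nfe2, -1.002 ± 0.27; Gata1, -1.14 ± 0.32), with sums of 706 to 3554 CPM in mutants and 1479 to 6377 CPM in wild type, and Hba-a1 was at 0 in every library. Yolk sac markers gave 1 of 10 genes down (Spink1, -2.05 ± 0.43), and enriched diet mutant replicate 4 had a sum of 139 CPM against 8.70 to 40.8 CPM in the other libraries. Decidua markers gave 0 of 5 in the average and 1 up on the enriched diet, where mutant replicate 3 held the high sum given above. Prl3c1 was at 0 in every library. Of the 5 primitive streak and tail bud markers that could be tested, Fgf17 rose (0.21 ± 0.07) and Cdx1 fell. Fgf17 is also on the list of midbrain-hindbrain boundary markers, and Cdx1 on that of genes known to respond to beta-catenin. Their changes are therefore not separate from the counts given for those lists. Genes of hypoxia and glycolysis rose in 23 of 24 genes and fell in 0, with a median log2 fold change of 1.52 and sums of 11755 to 19902 CPM in mutants and 7007 to 10368 CPM in wild type, led by Ndufa4l2 (3.69 ± 0.22), Adm (5.37 ± 0.36), Pfkp (2.37 ± 0.18) and Pfkl (0.69 ± 0.06). Moderate diet mutant replicate 3 had the lowest hypoxia sum of all mutants.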

How the data were processed

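RNA was taken from mouse embryo heads and sequenced from TruSeq RNA libraries, per the labels, a kit that does not mark strand. The authors deposited unnormalised read counts for each gene. FastQC 0.11.5, TopHat2 2.1.1, SAMtools 1.8, HTSeq 0.9.1 and DESeq2 1.22.2 and the build mm10 are named in the submitters' processing notes. The counting mode, strand option and annotation are not given in the sources used here. Reads in no gene were 13.7 to 17.0% and ambiguous reads 1.20 to 1.39%, and both were left out.

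From the counts, genes reaching 10 counts in 4 or more libraries were fitted in edgeR 4.0.16 (R 4.3.3; TMM scaling, quasi-likelihood test) with the 4 groups and the labelled sex, over all 16 libraries. CPM and RPKM use TMM-scaled totals, and RPKM the length of all exons in GENCODE vM21, which also gave positions (23334 symbols matched). Alternatives were DESeq2 1.42.0, limma-voom (limma 3.58.1), other scaling, filters, covariates and sample sets, and leaving out each library. The code was tested on simulated data.

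The 41 genes and the 19 other gene lists were chosen with earlier results of these data known. Each library's value is given for members past an adjusted p of 0.05 in any comparison and for the highest member per family. Of each other list, up to 4 genes with the smallest p in the average over diets are named. Ccnd1, Axin2, Lef1, Kdr, Fgf17, Draxin, Igfbp4, Fzd5, Wnt1, Wnt2, Dkk3 and Sfrp5 were added after their values were seen.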

Additional observations from a re-analysis of the deposited data

Results flagged for a closer look

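In 13 of 152 groups of 4 libraries, the highest or lowest library of a tested gene lay far from the other 3 (a gap past the 95% critical value of Dixon's test, which chance gives in about 1 in 20 groups). The cause was not tested for any of them.

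Moderate diet mutant replicate 3 was high in Dkk2, at 3.15 CPM against 0.287 to 0.581 CPM in the other moderate diet mutants. The same library was high in Wnt2, at 3.38 CPM against 0.0820 to 0.137 CPM, and low in Fzd6, at 13.6 CPM against 18.1 to 18.9 CPM. Moderate diet mutant replicate 2 was high in Fzd7, at 321 CPM against 257 to 267 CPM.

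Enriched diet mutant replicate 3 was high in Fzd5, at 60.8 CPM against 25.1 to 28.7 CPM in the other enriched diet mutants, and in Sfrp1, at 263 CPM against 175 to 188 CPM. It was low in Rspo1, at 13.6 CPM against 22.2 to 23.4 CPM. That library alone held the high decidua marker sum given above, and whether the sum bears on these 3 genes was not tested. Enriched diet mutant replicate 1 was high in Fzd10, at 109 CPM against 80.0 to 83.2 CPM.

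Among wild type libraries, moderate diet replicate 4 was low in Dkk1, at 12.1 CPM against 14.9 to 15.4 CPM, low in Sfrp1, at 294 CPM against 323 to 328 CPM, and high in Dkk3, at 19.4 CPM against 15.5 to 15.7 CPM. Moderate diet wild type replicate 1 was low in Wnt2, at 0.144 CPM against 0.236 to 0.249 CPM. Enriched diet wild type replicate 4 was high in Wnt9a, at 12.9 CPM against 8.77 to 9.17 CPM.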

How the results depend on the processing

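No fold change of the 15 genes past the threshold turned round under any alternative run. Rspo2, Wnt7b and Wnt8b were called in the genotype comparison of each diet and in the average under every alternative, and Dkk1, Dkk2, Sfrp1, Sfrp2 and Wnt3 likewise on the enriched diet and in the average. Without the 3 libraries of contradicted sex, the moderate diet gave 3 genes in place of 7 and 105 genes over all in place of 1106, with fewer libraries in the fit. Leaving out each library gave 6 to 10 genes on the moderate diet, 9 to 13 on the enriched diet, 13 to 16 in the average and 0 in the diet comparisons and the interaction. In those fits 3.71 to 14.6% of all genes passed on the moderate diet, 20.9 to 33.6% on the enriched diet and 28.8 to 38.4% in the average. In the diet comparisons and the interaction, at most 0.00692% of all genes passed. With the replicate number as a block, 9, 12 and 17 genes were called on the moderate diet, on the enriched diet and in the average, and 0 in the other comparisons. The share of all genes called was then 10.0, 34.3 and 38.9%, against 7.62, 31.2 and 35.8% without the block, and 0.0% in the other comparisons. The numbers were not taken to pair the samples, since the correlations of same-numbered libraries ran from -0.29 to 0.51. Low genes limit the precision: Wnt2, Wnt11, Sfrp5, Rspo4 and Wnt16 have few counts, and an interval of 2 SE around the diet effect on Dkk2 in wild type spans -1.05 to 0.94.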

Other observations

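Wnt3, Wnt7a, Rspo1 and Rspo3, singled out after their values were seen, tended to be lowest in the same libraries of a group. The choice itself favours such a pattern, so it is a description and no test. How many other genes were lowest in the same libraries was not counted. All 4 were lowest in enriched diet mutant replicate 3 among the enriched diet mutants, with 5.94 CPM of Wnt3, 3.23 CPM of Wnt7a, 13.6 CPM of Rspo1 and 10.1 CPM of Rspo3. The other enriched diet mutants had at least 9.40, 10.4, 22.2 and 16.9 CPM of these genes. All 4 were also lowest in enriched diet wild type replicate 2 among the enriched diet wild type libraries, with 4.50, 2.57, 18.1 and 11.5 CPM.

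Moderate diet mutant replicate 3 was the lowest of its group in Wnt3, Rspo1 and Rspo3, and replicate 2 in Wnt7a. In moderate diet wild type, replicate 1 was lowest in Wnt7a, Rspo1 and Rspo3, and replicate 2 in Wnt3. The summed roof plate and dorsal neural tube markers were lowest in replicate 3 of the mutants on both diets, at 317 CPM on the enriched diet (next lowest 379 CPM) and 263 CPM on the moderate diet (next lowest 333 CPM). In wild type, that sum was lowest in replicate 1 on the enriched diet and replicate 2 on the moderate diet. The summed midbrain-hindbrain boundary markers were lowest in replicate 3 of the moderate diet mutants (178 CPM, next lowest 235 CPM). Among enriched diet mutants that sum was lowest in replicate 2 (199 CPM, next lowest 230 CPM). In wild type it was lowest in replicate 3 on the enriched diet and replicate 4 on the moderate diet. Whether either sum bears on the 4 genes was not tested.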
